A study of Mus musculus with 2 samples.

Results

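Mitosis and spindle genes are described here in single cells of dysplastic mouse stomach organoids: 54 listed genes that encode kinases and cyclins of mitotic entry, kinetochore proteins, kinesins, spindle proteins, chromosome and nuclear envelope proteins, and proteins of mitotic exit and cytokinesis. All 54 were found by symbol among the 32227 genes of the deposited tables, and all 54 had at least 20 counts in the libraries together. Meta4 organoids, a line from the stomach corpus, received pyrvinium (labelled Pyr), an anthelmintic drug, or its solvent DMSO for 1 day, and each treatment gave 1 library. Both libraries carry Mist1-CreERT2Tg/+ together with LSL-K-ras(G12D)Tg/+ and are labelled as dysplasia induction, so the K-ras(G12D) allele, which needs Cre to remove its stop cassette, is common to drug and control. The Cre is driven from Mist1, a gene of gastric chief cells, and the organoids of both groups are 1 line. With 1 library for each treatment there is no replicate spread and no test. Every interval given is a 95% interval that covers counting error only, and "lower" or "higher" compares these libraries.

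When a cell enters mitosis, Cdk1 bound to a cyclin is switched on, chromosomes condense, and a spindle of microtubules forms with the help of kinesins. Kinetochores tie each chromosome to the spindle, and a checkpoint holds the cell until all are tied. The anaphase-promoting complex then marks cyclins and other proteins for destruction, the chromatids part and the cell divides. Most genes of this programme are transcribed late in the cell cycle, so their transcripts collect in dividing cells and are scarce in resting ones. In stomach epithelium they are known from the proliferating cells of the glands, and in dysplasia such cells are found outside their usual zone.

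Cells were barcodes with at least 13100 counts in the pyrvinium library and 9320 in the DMSO library, which left 854 and 1602 cells. The pyrvinium cells were deeper: the median cell had 31517 counts over 4688 genes, against 18593 counts over 3644 genes in the DMSO library. Summed over cells, the pyrvinium library held 37046673 counts and the DMSO library 39980497. No cell barcode was shared (0 of these cells). The cells carried epithelial keratin and claudin transcripts, with all 7 epithelial markers counted and a sum of 5877 counts per 1000000 counts of the library's cells (CPM) with pyrvinium and 8723 CPM with DMSO. Fibroblast markers summed to 0.810 and 1.03 CPM and immune markers to 1.24 and 0.825 CPM. The lineage marker list of the stomach summed to 447 CPM with pyrvinium and 379 CPM with DMSO, nearly all of it from Tff1, while Muc5ac and Atp4b had at most 2 counts in a library. Endothelial markers summed to 60.7 and 44.4 CPM, of which Cdh5 gave 56.6 and 41.7 CPM. A list of heat shock and cell dissociation genes stood at 395 CPM with pyrvinium and 1632 CPM with DMSO. Of its 12 genes 9 were lower, among them Fos (35.9 and 491 CPM) and the heat shock gene Dnajb1 (45.5 and 137 CPM). The 3 that were higher were the heat shock genes Hspa1a, Hspa1b and Hspb1. The part of this list in the results was not tested.

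Mitosis and spindle transcripts were scarcer in the pyrvinium library. Together the 54 genes took 2030 CPM (interval 2016 to 2045) of the pyrvinium cells and 3343 CPM (3325 to 3361) of the DMSO cells, which is 1.65-fold lower with pyrvinium. Of the 54 genes, 39 (72.2%) were at least 1.5-fold lower with the whole interval on that side, 1 was higher and 14 were neither, while of all 15586 genes measured 15.5% were lower and 7.57% higher. The ratio was below 0 on the log2 scale for 52 of the 54. Its median was -0.78, over a range of -1.42 to 0.94, against a median of -0.08 for all genes. When the libraries were scaled without mitochondrial and ribosomal protein genes, 37 members were lower and the share of all genes was 12.7% lower and 9.80% higher.

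A sum over cells falls when fewer cells carry the transcripts and also when each cell carries less, and the mix of cells differed between these libraries. Cells were therefore also grouped into 6 clusters made without the members, the other mitosis genes listed here and the S phase genes. Cluster 2, which had the highest member level in both libraries among clusters of at least 30 cells, held 12.3% of the pyrvinium cells and 35.0% of the DMSO cells. With equal weight for the clusters that hold at least 30 cells of each library, 5 members were at least 1.5-fold lower, 2 were higher and the median ratio was -0.24, where 16.8% of all genes were lower and 8.72% higher. In that setting the share of members that were lower did not exceed the share of all genes. It rests on clusters 1 and 2 only and weights them equally, though cluster 1 held 504 pyrvinium cells and cluster 2 held 105. In cluster 1 alone 29 members were lower, where 22.8% of all genes were lower. In cluster 2 alone 3 members were lower, where 11.8% of all genes were lower. Cluster 2 is led by cell cycle genes, and not all such genes were left out of the clustering, so these clusters also part cells by cycling. The count of 39 describes the whole libraries, and values are also given by cluster and by single cell.

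**Figure D1:**
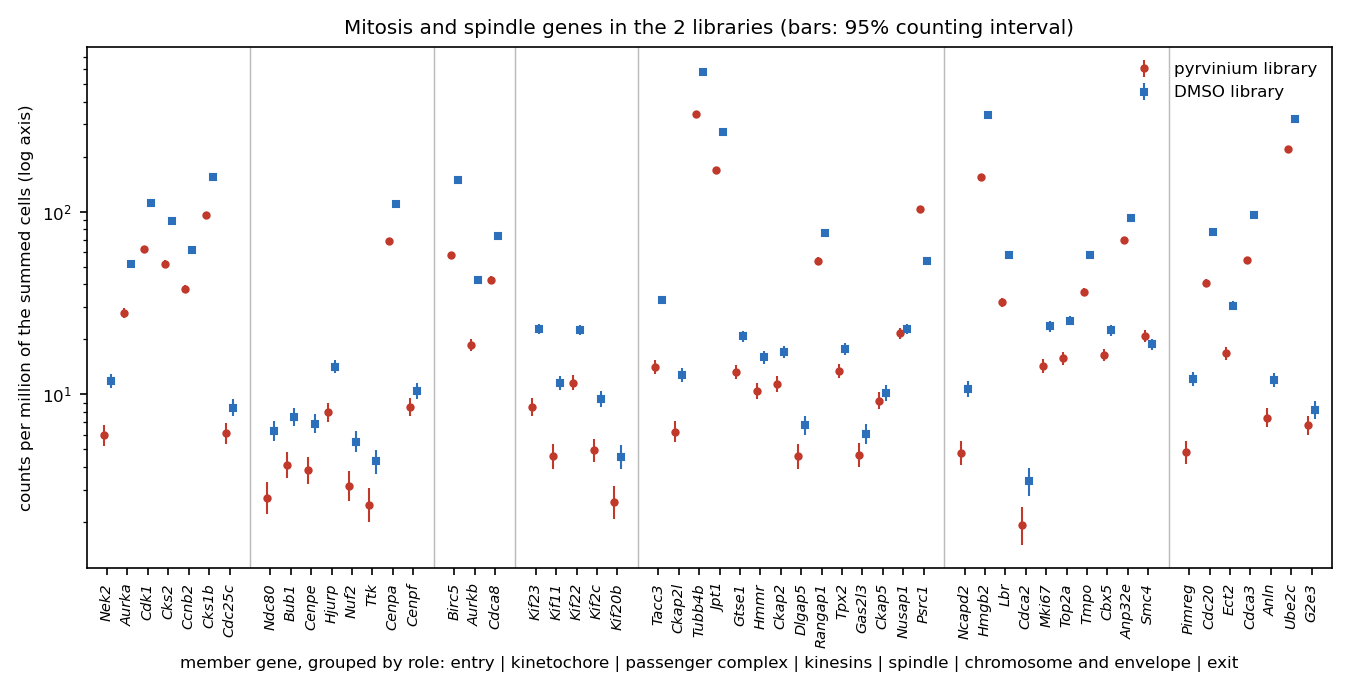
Level of each of the 54 members in CPM of the summed cells (vertical log axis) in the pyrvinium library (red circles) and the DMSO library (blue squares), with 95% counting intervals, grouped by role along the horizontal axis. The DMSO value lies above the pyrvinium value for 52 of the 54 members, and Psrc1 and Smc4 have the pyrvinium value on top.

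Promoters of mitosis genes are known to carry CCAAT boxes, which bind the factor NF-Y, and the cell cycle homology region TTTGAA or TTCGAA, which is bound by MuvB complexes that silence these genes in resting cells and, with B-Myb and Foxm1, raise them late in the cycle. RefSeq promoters on mouse build GRCm38.p6, 250 bases before to 50 bases after the start, were at hand for 47 members. Aurkb, Cdc25c, Cdca2, Dlgap5, Pimreg, Smc4 and Tpx2 had no entry. CCAAT was found on either strand in 37 of the 47 (78.7%), against 39.1% of the 11888 measured genes in the same table. TTTGAA or TTCGAA was found on either strand in 35 members (74.5%), against 14.8% of those genes. Both kinds stood together in 30 members (63.8%), against 6.40%. Over all 27025 genes of the table the shares were 37.9% for CCAAT, 19.4% for the homology region and 7.70% for both. Members with both kinds had a median log2 ratio of -0.79, with 23 of 30 lower, and the other 17 had a median of -0.78, with 13 lower. A match is a string of letters in a window and not a binding site, and the start is the first that RefSeq lists for the gene.

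Shown are the promoters of the 4 members with the most matches among those described in full, each 300 bases from 5′ to 3′ on the gene's strand, with the matches in capitals (ATTGG and TTCAAA are CCAAT and TTTGAA read on the other strand). Hmgb2 lies at chr8:57511593-57511892 on the plus strand, Cdca8 at chr4:124936868-124937167, Ckap2l at chr2:129297163-129297462 and Ncapd2 at chr6:125191537-125191836, the last 3 on the minus strand.
Hmgb2: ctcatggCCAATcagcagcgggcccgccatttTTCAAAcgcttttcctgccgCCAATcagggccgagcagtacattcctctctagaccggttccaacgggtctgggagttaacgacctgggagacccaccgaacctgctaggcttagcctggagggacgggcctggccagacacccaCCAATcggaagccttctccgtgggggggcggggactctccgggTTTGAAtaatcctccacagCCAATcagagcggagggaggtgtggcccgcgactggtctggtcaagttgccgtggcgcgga
Cdca8: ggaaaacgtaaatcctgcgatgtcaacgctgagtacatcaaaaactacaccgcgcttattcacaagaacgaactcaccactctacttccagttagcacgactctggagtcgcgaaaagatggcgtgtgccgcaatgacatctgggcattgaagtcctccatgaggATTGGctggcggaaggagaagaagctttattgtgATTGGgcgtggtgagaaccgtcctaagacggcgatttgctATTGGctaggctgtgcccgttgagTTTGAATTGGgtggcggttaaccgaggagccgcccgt
Ckap2l: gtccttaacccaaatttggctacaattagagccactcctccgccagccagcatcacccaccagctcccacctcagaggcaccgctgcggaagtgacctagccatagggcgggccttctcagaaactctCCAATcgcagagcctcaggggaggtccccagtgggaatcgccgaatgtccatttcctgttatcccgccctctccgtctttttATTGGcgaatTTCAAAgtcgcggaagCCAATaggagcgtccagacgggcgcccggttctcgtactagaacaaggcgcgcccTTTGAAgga
Ncapd2: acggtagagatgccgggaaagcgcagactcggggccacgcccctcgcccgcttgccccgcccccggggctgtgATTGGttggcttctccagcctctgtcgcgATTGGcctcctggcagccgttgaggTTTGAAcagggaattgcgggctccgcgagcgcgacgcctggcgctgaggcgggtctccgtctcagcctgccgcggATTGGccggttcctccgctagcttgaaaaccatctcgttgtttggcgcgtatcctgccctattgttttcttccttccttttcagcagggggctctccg
Hmgb2 and Cdca8 hold 4 CCAAT matches each, and Ckap2l and Ncapd2 hold 3 each. The last TTTGAA match of Hmgb2 begins 30 bases before the start, and a CCAAT follows it, beginning 11 bases before the start. In Ckap2l a TTTGAA begins at the same 30 bases with a CCAAT on either side, at 40 and 14 bases. In Cdca8 the TTTGAA lies after the start and shares letters with a CCAAT on the other strand. A stretch of 20 bases after the start was sought in the GENCODE transcripts of each gene. It was found in 0 of 3 for Hmgb2, 1 of 6 for Cdca8, 1 of 1 for Ckap2l and 2 of 13 for Ncapd2. The distances therefore hold for the RefSeq start only. The ratios of these genes were -1.13 for Hmgb2, -0.80 for Cdca8, -1.04 for Ckap2l and -1.17 for Ncapd2. Members described in full were picked by their ratio, so these values say nothing about the motifs.

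Kinases, cyclins and partners of mitotic entry were lower in 6 of 7 members, with a median log2 ratio of -0.78. Nek2, a kinase that parts the centrosomes, stood at 5.94 CPM (5.18 to 6.78) with pyrvinium and 11.8 CPM (10.8 to 12.9) with DMSO, a log2 ratio of -0.99 (-1.23 to -0.76). Aurka, the kinase of the spindle poles, stood at 27.96 CPM (26.3 to 29.7) and 51.9 CPM (49.6 to 54.1), a ratio of -0.89 (-0.9997 to -0.78). Cdk1, the kinase that drives entry, had 62.4 CPM with pyrvinium and 111 CPM with DMSO (-0.84). Its level was 1.79-fold lower, and its cyclin and small subunits were lower too. Ccnb2, a B-type cyclin, had 37.7 and 61.9 CPM (-0.72). The Cdk-binding subunit Cks2 had 51.9 and 89.1 CPM (-0.78), and Cks1b had 95.6 and 154 CPM (-0.69). The exception was Cdc25c, the phosphatase that frees Cdk1 of its inhibitory phosphates: 6.10 CPM (5.33 to 6.95) with pyrvinium and 8.43 CPM (7.55 to 9.38) with DMSO, a ratio of -0.47 (-0.72 to -0.22) that was under 1.5-fold. Aurka overlaps Cstf1 in the annotation, and whether counting used the strand is not given in the sources used here.

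Kinetochore, centromere and checkpoint genes were lower in 7 of 8 members, with a median of -0.82. Ndc80, which holds microtubules at the kinetochore, stood at 2.70 CPM (2.20 to 3.28) with pyrvinium and 6.28 CPM (5.53 to 7.10) with DMSO, a log2 ratio of -1.22 (-1.57 to -0.88). Nuf2, its partner in the same complex, had 3.16 and 5.50 CPM (-0.80). The checkpoint kinase Bub1 stood at 4.10 CPM (3.48 to 4.81) and 7.48 CPM (6.65 to 8.38), a ratio of -0.87 (-1.16 to -0.58). Ttk, the checkpoint kinase also called Mps1, was counted only 92 times in the pyrvinium library and 171 times in the DMSO library, so its interval is wide. Ttk had 2.48 and 4.28 CPM, a ratio of -0.78 (-1.17 to -0.41). The kinetochore kinesin Cenpe had 3.83 and 6.90 CPM (-0.85). Cenpa, the histone variant that marks centromeres, and Hjurp, the chaperone that places it, were both lower. Cenpa had 69.1 CPM with pyrvinium and 111 CPM with DMSO (-0.68), and Hjurp had 7.96 and 14.2 CPM (-0.83). Cenpf, a large protein of the outer kinetochore, differed least, with 8.50 CPM (7.59 to 9.50) and 10.4 CPM (9.43 to 11.5), a ratio of -0.29 (-0.51 to -0.08).

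The chromosomal passenger complex, which corrects faulty attachments and later guides cytokinesis, was lower in all 3 members, with a median of -1.19. Birc5, known as survivin, stood at 57.5 CPM (55.1 to 59.96) with pyrvinium and 148 CPM (144 to 152) with DMSO, which is 2.58-fold lower with a log2 ratio of -1.37 (-1.44 to -1.29). Aurkb, the kinase of the complex, stood at 18.5 CPM (17.1 to 19.9) and 42.2 CPM (40.2 to 44.2), a ratio of -1.19 (-1.32 to -1.06). Cdca8, known as borealin, stood at 42.00 CPM (39.9 to 44.1) and 73.3 CPM (70.7 to 76.01), a ratio of -0.80 (-0.89 to -0.71). The intervals of Cdca8 and Birc5 do not touch, so these subunits of 1 complex differed by unequal amounts between the libraries.

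All 5 kinesins other than Cenpe were lower, with a median of -0.96. Kif23, which bundles microtubules in the midzone for cytokinesis, had the lowest ratio of the 54 genes: 8.53 CPM (7.62 to 9.52) with pyrvinium and 22.8 CPM (21.4 to 24.4) with DMSO, a log2 ratio of -1.42 (-1.61 to -1.23). Kif11, the motor that pushes the spindle poles apart, stood at 4.56 CPM (3.90 to 5.30) and 11.5 CPM (10.5 to 12.6), a ratio of -1.34 (-1.60 to -1.08). Kif23, Kif11, Birc5 and the condensin gene Ncapd2 were the 4 members that stayed lower under all 9 alternatives tried for each gene, equal cluster weights included. Within single clusters only Birc5 of these was lower in both cluster 1 and cluster 2. Kif23 (-0.58) and Kif11 (-0.55) were neither in cluster 2, and Ncapd2 (-0.54) was neither in cluster 1. The chromosome-arm motor Kif22 had 11.6 and 22.5 CPM (-0.96), but with equal cluster weights its ratio was 0.052. Kif2c, which takes microtubules apart at their ends, had 4.94 and 9.40 CPM (-0.93). The cytokinesis motor Kif20b, highest of the 5 in ratio, stood at 2.56 CPM (2.07 to 3.13) and 4.55 CPM (3.91 to 5.26), a ratio of -0.83 (-1.20 to -0.46).

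Spindle and microtubule genes were the most mixed group: 6 of 14 were lower, 1 was higher and 7 were neither, with a median of -0.57. Tacc3, which with clathrin and Ckap5 ties spindle microtubules together, stood at 14.1 CPM (12.9 to 15.4) with pyrvinium and 32.8 CPM (31.02 to 34.6) with DMSO, a log2 ratio of -1.21 (-1.36 to -1.07). Ckap2l, a protein of spindle poles and midbody, stood at 6.24 CPM (5.46 to 7.09) and 12.8 CPM (11.7 to 13.97), a ratio of -1.04 (-1.27 to -0.81). The beta-tubulin Tubb4b had 341 and 583 CPM (-0.78), with the reservation that tubulin genes resemble each other and reads may be split among them. Jpt1 had 169 and 273 CPM (-0.69). Gtse1, a microtubule tip protein that also restrains p53, had 13.3 and 20.7 CPM (-0.64), and Hmmr, which anchors spindle poles, had 10.4 and 15.9 CPM (-0.60). Both lay close to the 1.5-fold line, and Hmmr was past it in 2 of 9 alternatives and Gtse1 in 5 of 9.

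Of the 14 members that were neither lower nor higher, 7 belong to this group. Nusap1, which bundles microtubules, had 21.5 CPM with pyrvinium and 22.8 CPM with DMSO, and the interval of its ratio (-0.23 to 0.05) holds 0. The microtubule polymerase Ckap5 had 9.20 and 10.1 CPM, with an interval of -0.35 to 0.07 that also holds 0. Nusap1 overlaps Oip5 and Ckap5 overlaps F2 in the annotation, with the same reservation as for Aurka. Tpx2, which activates Aurka on the spindle, had 13.3 and 17.6 CPM (-0.40). The remaining members of this kind had ratios between the 1.5-fold line and 0. Dlgap5, known as HURP, had 4.56 and 6.78 CPM (-0.57), and Ckap2 had 11.4 and 16.9 CPM (-0.57). Gas2l3, a linker of actin and microtubules, had 4.64 and 6.08 CPM (-0.39). Rangap1, the activator of Ran GTP hydrolysis, had 53.7 and 76.5 CPM (-0.51).

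Psrc1 was the single member that was higher with pyrvinium. It encodes a microtubule-binding protein of the spindle, also called DDA3, and is known in mouse as a gene that p53 can induce. Its level was 103 CPM (99.7 to 106) with pyrvinium and 53.7 CPM (51.4 to 55.97) with DMSO, which is 1.92-fold higher with a log2 ratio of 0.94 (0.86 to 1.02). Over the 9 alternatives the ratio ran between 0.91 and 1.04. At 9000 counts per cell, 55.9% of pyrvinium cells (52.5 to 59.2) and 32.3% of DMSO cells (30.05 to 34.7) had a Psrc1 count.

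**Figure D2:**
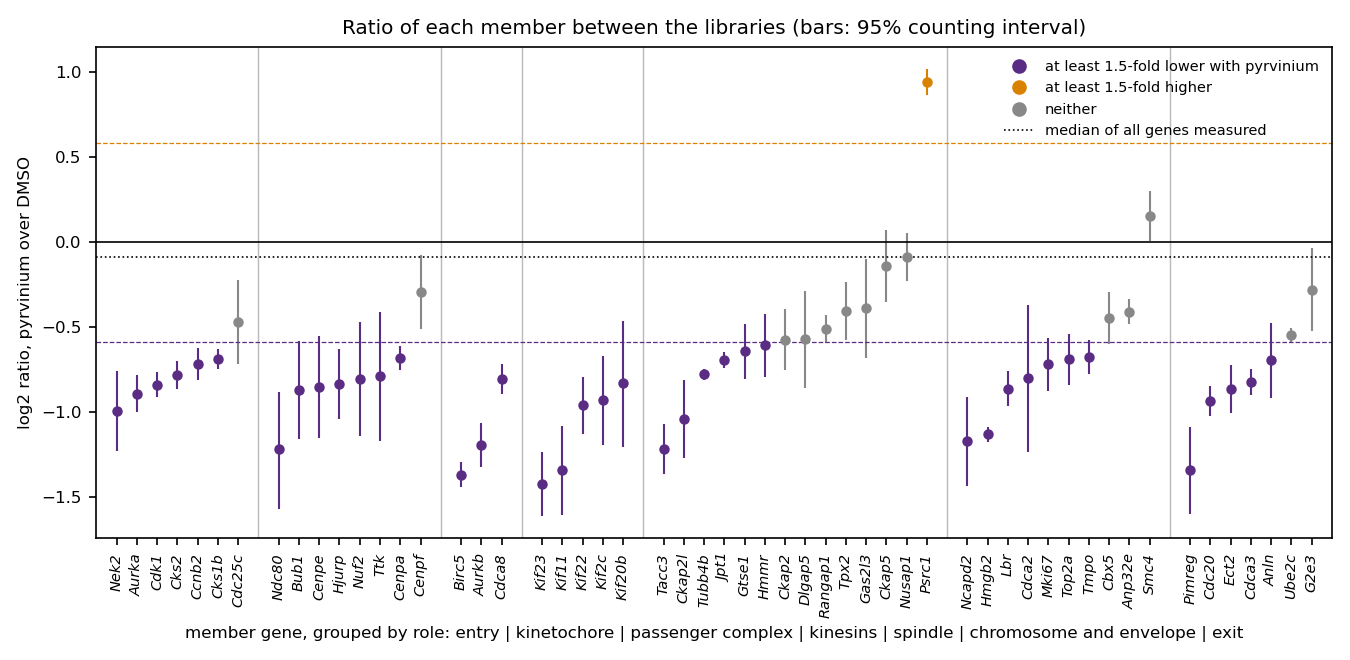
Log2 ratio of pyrvinium over DMSO for each member in the summed cells, with its 95% counting interval, ordered by ratio within each role; purple marks members at least 1.5-fold lower, orange the member at least 1.5-fold higher and grey the rest. The dotted line is the median of all genes measured (-0.08); the points of all kinesins and passenger complex genes lie below the 1.5-fold line, and spindle genes run from -1.21 to 0.94.

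Chromosome structure and nuclear envelope genes were lower in 7 of 10 members, with a median of -0.70. The condensin subunits in the list parted. Ncapd2 stood at 4.75 CPM (4.07 to 5.51) with pyrvinium and 10.7 CPM (9.69 to 11.7) with DMSO, a log2 ratio of -1.17 (-1.43 to -0.91), whereas Smc4 stood at 20.9 CPM (19.4 to 22.4) and 18.8 CPM (17.4 to 20.2), a ratio of 0.15 (0.01 to 0.30). Hmgb2, a DNA-bending chromatin protein, stood at 154 CPM (150.4 to 158) and 338 CPM (332 to 343), a ratio of -1.13 (-1.17 to -1.08). Top2a, which untangles sister chromatids, and Mki67, which coats mitotic chromosomes, are used as marks of cycling cells. Top2a had a ratio of -0.69 (-0.84 to -0.54) and Mki67 a ratio of -0.72 (-0.87 to -0.56), and Mki67 was not called lower in 3 of 9 alternatives. Of the nuclear envelope genes, the lamin B receptor Lbr had 31.9 and 57.98 CPM (-0.86), and the lamina protein gene Tmpo had 36.2 and 57.7 CPM (-0.67). Cdca2, which brings a phosphatase to chromosomes at exit, had 1.92 and 3.33 CPM (-0.80). Besides Smc4, the chromatin protein genes Cbx5 and Anp32e were under 1.5-fold. The HP1 gene Cbx5 had 16.4 and 22.3 CPM (-0.44), and Anp32e, a chaperone of the histone variant H2A.Z, had 69.5 and 92.2 CPM (-0.41).

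Genes of mitotic exit and cytokinesis were lower in 5 of 7 members, with a median of -0.82. Pimreg stood at 4.80 CPM (4.12 to 5.56) with pyrvinium and 12.2 CPM (11.1 to 13.3) with DMSO, a log2 ratio of -1.34 (-1.60 to -1.09). Cdc20, the activator of the anaphase-promoting complex, stood at 40.6 CPM (38.6 to 42.7) and 77.5 CPM (74.8 to 80.3), a ratio of -0.93 (-1.02 to -0.84). Ube2c, the enzyme that brings ubiquitin to that complex, had 219 and 319.8 CPM (-0.54). With an interval of -0.59 to -0.50, Ube2c had a narrow interval and lay just short of 1.5-fold, at 1.46-fold lower. Cdca3, a ubiquitin ligase adaptor of mitotic entry, had 54.2 and 95.7 CPM (-0.82). Ect2, which switches on RhoA at the cleavage furrow, had 16.8 and 30.4 CPM (-0.86). Anln, the anillin scaffold of the contractile ring, had 7.42 and 12.01 CPM (-0.69). The ubiquitin ligase gene G2e3 stood at 6.75 CPM (5.94 to 7.64) and 8.18 CPM (7.32 to 9.12), a ratio of -0.28 (-0.52 to -0.04). Cdc20 overlaps Elovl1 in the annotation and Pimreg overlaps Aipl1, as Hjurp does Mroh2a and Tubb4b does Fam166a, and the reservation made for Aurka holds for them.

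Many other genes of the mitotic machinery were lower too. Of 95 other mitosis genes listed by role, 52 (54.7%) were lower and 2 (2.11%) higher, where 15.5% of all genes were lower and 7.57% higher. Their median was -0.62, and the same shares of all genes apply to each list that follows. In the entry list 8 of 13 were lower. Ccnb1, the main mitotic cyclin, had 22.4 CPM with pyrvinium and 46.4 CPM with DMSO (-1.05), and the kinase Plk1 had 16.7 and 40.7 CPM (-1.29). Ccna2 and Ccnf, further cyclins, had ratios of -1.07 and -1.52, while Arpp19, a phosphatase inhibitor, was at 0.07. In the kinetochore and checkpoint list 19 of 31 were lower, led among genes at 5 CPM or more in a library by Cenpn (-1.80), Cenpk (-1.65) and Ska1 (-1.50), with Mad2l1 at -0.63 and Bub1b at -0.38. Knl1, the kinetochore scaffold that recruits Bub1, was the exception. Knl1 had 18.4 CPM with pyrvinium and 5.70 CPM with DMSO, a log2 ratio of 1.69 (1.47 to 1.91).

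Of 17 other kinesins and spindle genes 13 were lower, among them Stmn1 (-1.47), Kifc1 (-1.40), Kif20a (-1.22) and Prc1 (-0.78). Kif3a, a kinesin of cilia and transport, was higher at 0.76. Kif20a (-0.33) and Prc1 (0.071) lost the call with equal cluster weights, while Stmn1 and Kifc1 kept it in all 9 alternatives. The tubulin list had 4 of 9 lower, with Tubb6 at -1.43, Tuba1b at -1.13, Tuba1a at -1.11 and Tubb2b at -0.09. Condensin and cohesin genes had 6 of 11 lower. Smc2, the condensin partner of Smc4, was at -1.19, Ncapg at -0.83 and the cohesin gene Smc1a at -0.79, while the cohesin subunit gene Stag2 was at 0.41. The list of anaphase and exit genes, most of them core subunits of the anaphase-promoting complex, had 2 of 14 lower (14.3%), near the 15.5% of all genes, and a median of -0.19. Anapc4 (-0.59), Anapc5 (-0.55) and Ube2s (-0.53) were its lowest at 5 CPM or more, and Anapc4 was called lower in 2 of 9 alternatives. Pttg1, the securin that guards separase, was its highest at 0.42, with 47.3 CPM with pyrvinium and 35.4 CPM with DMSO.

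Among 19 regulators of mitosis genes, 9 (47.4%) were lower, against 15.5% of all genes, with a median of -0.52. Mybl2, which encodes B-Myb, had 1.30 CPM with pyrvinium and 5.15 CPM with DMSO (-1.99), and Foxm1 had 1.65 and 3.43 CPM (-1.06). The atypical E2F gene E2f8 was at -1.76 and Trp53, the gene of p53, at -1.10. Cdkn1a, the Cdk inhibitor p21 that p53 induces, had 1083 and 839 CPM, a ratio of 0.37 that was under 1.5-fold. S phase genes were lower in 38 of 44 (86.4%), with a median of -1.17. Ccne2 (-2.37), Fen1 (-2.30) and Mcm7 (-1.95) had the lowest ratios of that list and Cdc45 the highest at 5 CPM or more (-0.05). The medians of the 54 members and of the S phase list were not compared by a test. The annotation also has overlaps of Cenpn with Cmc2, Cenpk with Ppwd1, Ccna2 with Exosc9, Kif20a with Cdc23 and Brd8, Prc1 with Rccd1, Ncapg with Lcorl, Smc1a with Ribc1, Foxm1 with Tex52, Ccne2 with Ints8, Fen1 with Tmem258, Mcm7 with Ap4m1 and Cdc45 with Ufd1, so reads of these genes may be shared.

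**Figure D3:**
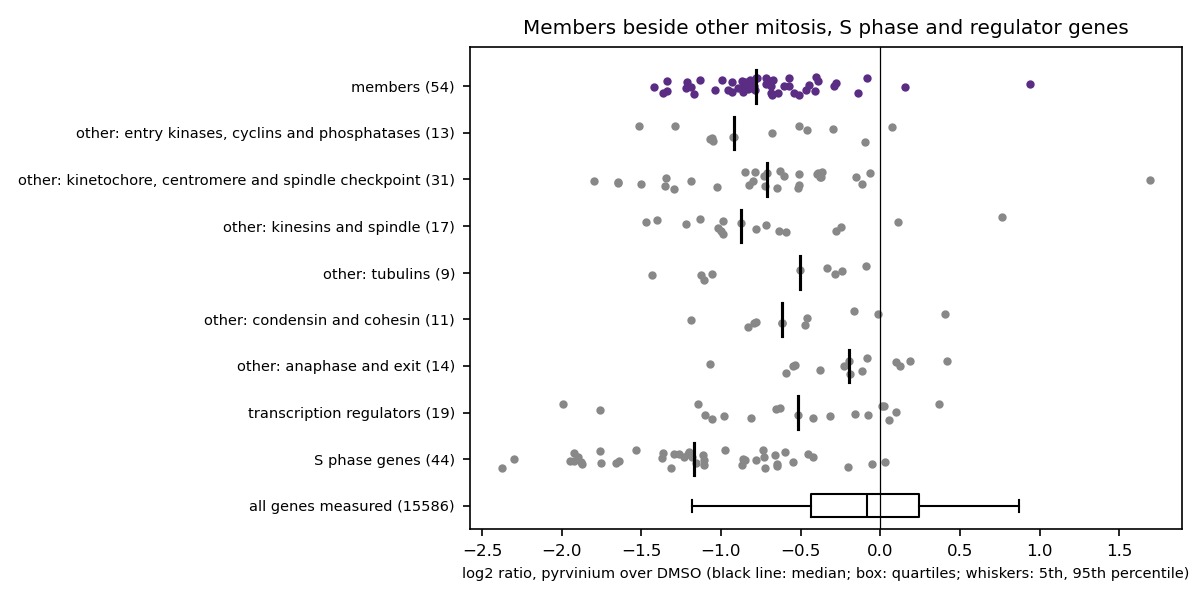
Log2 ratio of pyrvinium over DMSO (horizontal axis) for each gene of each list, with the list's median as a black line and the number of genes in brackets, above a box of all 15586 genes measured. The members' median (-0.78) lies between those of the S phase genes (-1.17) and of the other anaphase and exit genes (-0.19).

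Shares of cells with a count were taken at 9000 counts drawn at random from every cell, since the pyrvinium cells were deeper. Cdk1 was counted in 37.7% of pyrvinium cells (34.4 to 41.1) and 44.3% of DMSO cells (41.8 to 46.7). Ccnb2 was counted in 20.5% (17.8 to 23.4) and 30.1% (27.8 to 32.4). Cdc20 was counted in 18.9% (16.3 to 21.6) and 31.1% (28.9 to 33.5). For Mki67 the shares were 11.5% (9.42 to 13.8) with pyrvinium and 16.2% (14.5 to 18.1) with DMSO, and for Top2a 12.3% (10.2 to 14.7) and 16.9% (15.1 to 18.8). All 5 of these shares were lower in pyrvinium cells with intervals that do not touch. For Cenpf, with 6.44% (4.89 to 8.30) and 8.61% (7.29 to 10.1), the intervals overlap and a difference was not detectable at this depth. Without thinning the shares lay closer together or in the other order, with 71.8% and 61.2% for Cdk1, 40.4% and 45.3% for Ccnb2, 41.3% and 44.3% for Cdc20, 29.3% and 30.5% for Mki67, 31.0% and 31.1% for Top2a and 19.6% and 17.0% for Cenpf.

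Part of these shares can be free RNA. Barcodes with 100 to 500 counts, which hold no cell as defined here, carried the members at 2102 CPM in the pyrvinium library and 3290 CPM in the DMSO library, close to the levels of the cells. No cell type without these transcripts was found to serve as a background. The lowest share of Cdk1 in any cluster of at least 30 cells was 27.6% of pyrvinium cells (cluster 4) and 19.5% of DMSO cells (cluster 5), and for Cdc20 it was 12.3% (cluster 4) and 4.33% (cluster 5). The share within the lowest cluster was thus higher in the pyrvinium library, while the share over all cells was higher in the DMSO library.

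Cells differed widely in how many members they carried. At 9000 counts, a pyrvinium cell had a median of 8 distinct members counted and a DMSO cell 10, with 90th percentiles of 19 and 24 and highest values of 35 and 47. Member counts averaged 18.1 per pyrvinium cell and 28.6 per DMSO cell, with medians of 11 and 17. The 10% of cells richest in members held 35.1% of all member counts in the pyrvinium library and 30.6% in the DMSO library.

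The members were divided by their place in the list into a first set of 27 (odd places), used to choose cells. Another set of 27 (even places) was measured in the chosen cells. A cell was called rich in mitosis transcripts when more than 13 genes of the first set were counted, the 90th percentile of DMSO cells, so the DMSO share was near 10% by construction. Such cells were 31 of 854 in the pyrvinium library (3.63%, interval 2.48 to 5.11) and 145 of 1602 in the DMSO library (9.05%, 7.69 to 10.6). At the limit itself stood 22 pyrvinium and 61 DMSO cells, and just above it 7 and 38. The measured set had a mean of 35.2 counts in the rich pyrvinium cells (quartiles 26 and 41.5) and 32.7 in the rich DMSO cells (23 and 39). Rich cells were thus less common with pyrvinium, while the counts of the measured set within them had overlapping quartile ranges. The limit is the same in both libraries, so fewer cells also pass it where each cell carries less. Number of cells and level per cell therefore cannot be told apart by this split. In the remaining cells the measured set averaged 6.88 counts with pyrvinium and 9.67 with DMSO. Rich cells held 16.1% of the set's counts in the pyrvinium library and 25.2% in the DMSO library.

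The same order was seen over the whole range of the first set. Cells with at most 3 of its genes were 37.1% of pyrvinium and 28.2% of DMSO cells, and cells with 10 to 13 were 10.2% and 20.3%. At a given number of first-set genes the measured set had similar means in both libraries, with 3.45 and 3.42 counts at 0 to 3 genes, 11.5 and 12.2 at 7 to 9, and 19.7 and 22.1 at 10 to 13. Cells with a given number are matched on the first set, so similar means there cannot tell number of cells from level per cell. How alike the means were also depended on which genes were measured. With the sets swapped, rich cells were 3.86% of pyrvinium and 9.80% of DMSO cells, but the measured genes, which now included Hmgb2, Birc5 and Tubb4b, were lower in pyrvinium cells at each step, with 17.0 and 24.7 counts at 7 to 9 genes, 30.7 and 34.9 at 10 to 13, and 37.9 and 44.6 in the rich cells.

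**Figure D4:**
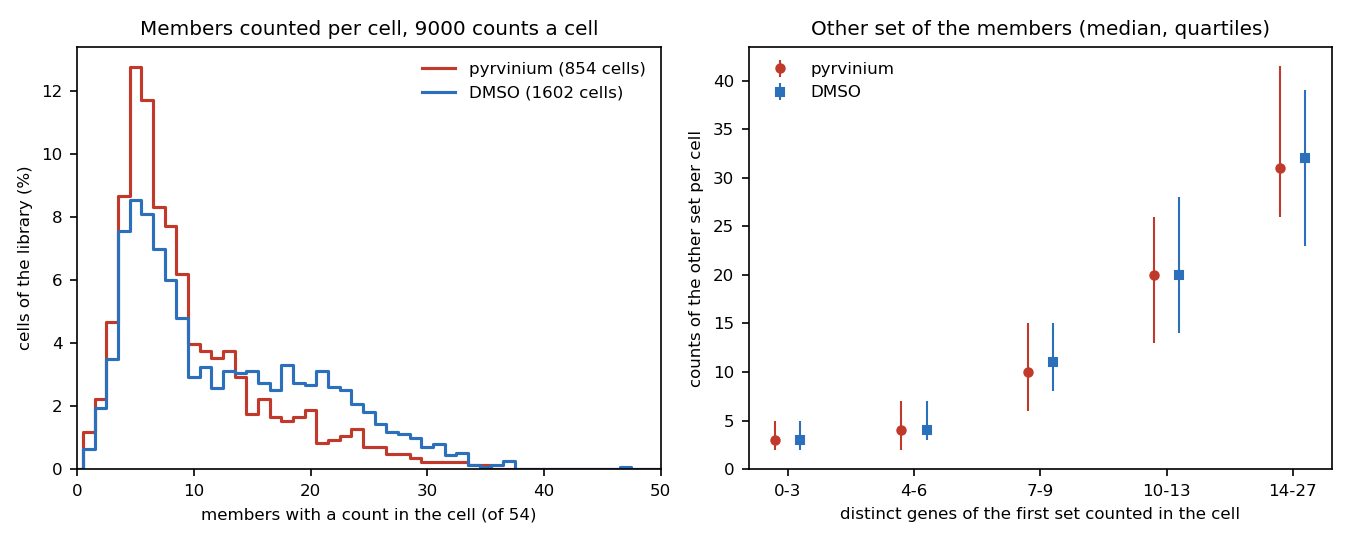
Left, share of cells (vertical axis, percent) by number of members counted at 9000 counts per cell, in red for pyrvinium and blue for DMSO; right, median and quartiles of the counts of the other set of 27 members per cell, by number of distinct genes of the first set. The DMSO line lies above the pyrvinium line from 14 to 34 members, and on the right the medians of both libraries lie close together at each step, from medians of 3 at 0 to 3 genes up to 31 with pyrvinium and 32 with DMSO at 14 to 27 genes.

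Each member was then measured in rich cells chosen by the set it does not belong to. All 54 were more abundant in rich than in other cells in both libraries, by a median of 5.63-fold with pyrvinium and 3.95-fold with DMSO. Within rich cells 1 member was lower and 3 were higher with pyrvinium, where all genes measured gave 7.15% lower and 8.01% higher in cells chosen by the first set, and 7.07% and 6.12% in cells chosen by the other. The median ratio in rich cells was -0.10, against -0.02 for all genes. Rich cells passed the same limit in both libraries and are so matched on mitosis transcripts. Ratios within them therefore cannot show whether each cell carried less. Birc5 was the member that was lower, with 259 CPM in rich pyrvinium cells and 414 CPM in rich DMSO cells, a ratio of -0.68 (-1.04 to -0.33). Psrc1 (165 and 73.6 CPM), Top2a (118 and 69.4 CPM) and Smc4 (104 and 62.99 CPM) were higher, at ratios of 1.16, 0.76 and 0.73. With 31 to 33 rich pyrvinium cells many members had few counts, and an interval such as that of Kif11 (-1.56 to 0.67, from 9 and 55 counts) leaves a wide range of ratios possible.

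In the remaining cells 28 members were lower, 1 was higher and the median was -0.63, where 14.5% and 14.4% of all genes were lower by the choosing set used, and 6.92% and 7.01% higher. The remaining cells differed in mix between the libraries. Of those left by the first set, cluster 2 held 10.8% with pyrvinium and 32.6% with DMSO. Ratios in the remaining cells, and folds of rich over other cells, also carry this mix. Summed by role, exit genes stood at 1861 CPM in rich pyrvinium and 1765 CPM in rich DMSO cells, and at 286 and 396 CPM in the remaining cells. Entry genes stood at 1274 and 1286 CPM in rich cells, and at 243 and 365 CPM in the rest. The role sums with the lowest ratios in rich cells were those of kinesins and the passenger complex. Kinesins (-0.33) had 207 CPM with pyrvinium and 261 CPM with DMSO, and the passenger complex (-0.32) had 593 and 740 CPM. These sums have no interval and add members measured in cells chosen by either set. Each kinesin was neither lower nor higher in rich cells, with at most 24 pyrvinium counts (Kif22).

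Rich pyrvinium cells were not the deepest of their library, with a median of 24174 counts against 31766 in the other pyrvinium cells, and in DMSO cells the medians were 18486 and 18656. S phase transcripts were scarcer with pyrvinium in rich and in remaining cells alike. The median count of the S phase list was 9 in rich pyrvinium cells and 14 in rich DMSO cells, and 4 and 8 in the remaining cells. Cdkn1a stood at 1527 CPM in rich pyrvinium cells and 715 CPM in rich DMSO cells, and at 1066 and 878 CPM in the remaining cells. These rich cells were only 31 with pyrvinium and 145 with DMSO, and their clusters differed. Cluster 1 held 35.5% and 11.7% of them, cluster 3 held 0% and 26.9%, and cluster 4 held 12.9% and 0%. Treatment and mix of cells cannot be told apart in these values.

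**Figure D5:**
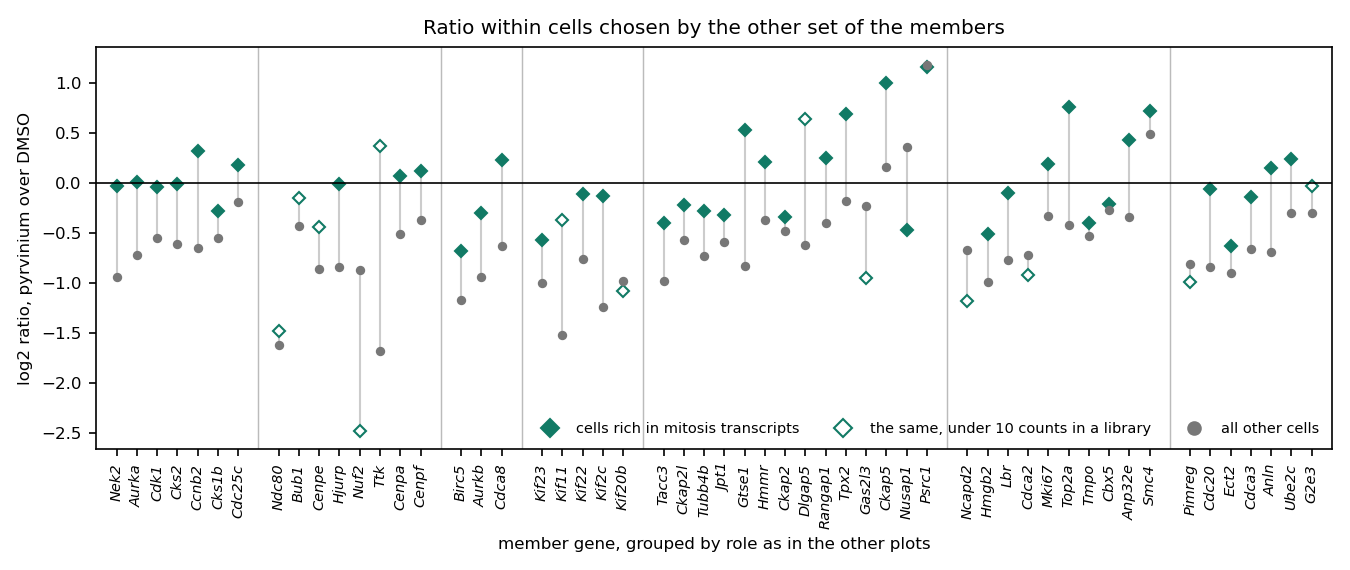
Log2 ratio of pyrvinium over DMSO for each member within cells rich in mitosis transcripts (green diamonds, open where a library had under 10 counts) and within all other cells (grey circles), the cells chosen by the set the member is not in. The median is -0.10 in rich cells and -0.63 in the others, and Psrc1 lies above 1 in both. Rich cells passed the same limit in both libraries and are so matched on mitosis transcripts.

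By cluster, the member level with pyrvinium and DMSO was 1765 and 2528 CPM in cluster 1 (504 and 404 cells) and 4011 and 4542 CPM in cluster 2 (105 and 561 cells). In cluster 1, led by Dusp4, Gdf15 and Kif13a, 29 members were lower and 1, Psrc1, was higher, with a median of -0.63; of all genes there 22.8% were lower, 7.31% were higher and the median was -0.16. In cluster 2 only 3 members were lower, 3 were higher and the median was -0.11, where 11.8% of all genes were lower and 11.5% higher. Lower there were Ncapd2 (-1.12), Tmpo (-0.87) and Birc5 (-0.72), and higher were Psrc1 (0.91), Smc4 (0.84) and Dlgap5 (0.65). Cluster 2 is led by cell cycle genes such as Stmn1, Plk1, Fen1, Asf1b and Pclaf, of which Asf1b and Pclaf took part in the clustering. Rich cells were 15.2% of the pyrvinium and 15.3% of the DMSO cells of cluster 2, and 2.18% and 4.21% of those of cluster 1.

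The other clusters each belonged almost wholly to 1 library, so a cluster and its library cannot be told apart. Cluster 4, led by Atf5, Hsd17b13 and Slc39a8, held 228 pyrvinium cells and 6 DMSO cells, and its pyrvinium cells had the members at 1653 CPM. Cluster 3, led by Srsf1, Kif11 and Srsf2, held 14 pyrvinium and 293 DMSO cells, with the members at 4067 CPM in the DMSO cells. Clusters 5 and 6 held 1 and 2 pyrvinium cells and 231 and 107 DMSO cells, with members at 1307 and 1292 CPM in the DMSO cells. Both libraries thus had cells with low member levels, in different clusters, and the DMSO library had a further group with high levels.

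From cell to cell the members went together. The correlation of a member's log counts with the sum of the other members had a median r of 0.29 over the 854 pyrvinium cells and 0.33 over the 1602 DMSO cells, and 49 of the 54 had the higher r in DMSO cells. Ube2c had the highest r, 0.72 and 0.77. Psrc1, with 0.07 and 0.12, had the lowest in pyrvinium cells, and in DMSO cells Ckap5 (0.18 and 0.12) lay just below it. These values share the library and the sparse counts of each cell. Of 7655 other genes with a count in at least 5% of cells of each library, the 10 whose counts followed the members most closely in both were Tuba1b (r of 0.55 and 0.70), Spc24 (0.53 and 0.60), Tubb5 (0.53 and 0.59), Il31ra (0.52 and 0.62), Ccnb1 (0.52 and 0.55), Stmn1 (0.50 and 0.54), Pclaf (0.46 and 0.52), Ccna2 (0.46 and 0.49), Lockd (0.45 and 0.47) and H2az1 (0.45 and 0.65). Several encode known cell cycle proteins, such as the cyclins and the kinetochore protein Spc24. Il31ra, a cytokine receptor gene, had 125 CPM with pyrvinium and 247 CPM with DMSO, a log2 ratio of -0.98 (-1.03 to -0.93).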

How the data were processed

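The deposited matrices hold whole-number counts per gene and barcode, with no normalization by the authors that the files record. Per the labels' protocols, the PIPseq T2 system of Fluent BioSciences was used to capture cells and make libraries. Partek and the mouse build GRCm39 are named in the submitters' processing notes. Aligner, annotation, use of strand and whether a count is a molecule: not given in the sources used here.

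Cells were barcodes that reached 1/10 of the total at the 99th percentile among the 2000 largest barcodes (13100 counts for pyrvinium, 9320 for DMSO), with at least 500 genes and at most 20% mitochondrial counts. Doublets were kept in the main setting, and the Scrublet score was used for an alternative. The counts of a library's cells were added and given per 1000000 of their total (CPM), with exact Poisson intervals for levels, exact conditional binomial intervals for log2 ratios and exact binomial (Clopper-Pearson) intervals for shares, all at 95%. Genes with 20 or more counts over both libraries were measured, and called lower or higher at 1.5-fold or more with the whole interval on that side. Since each group is 1 library there was no test, and cells were not treated as replicates. Intervals cover counting error only. The ratio and its interval were run on Poisson counts simulated from the DMSO profile with known fold changes. Such counts have no spread between cells or libraries, so this run checks the calculation only.

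Cells were thinned to 9000 counts for per-cell values, and 0 cells fell short of that. Clusters came from 2000 variable genes without members, other mitosis genes and S phase genes, on log values per 10000 counts, z-scored by library, with 30 components, 15 neighbours and Leiden resolution 0.5 (Python 3.11.15, NumPy 2.4.6, SciPy 1.17.1, scanpy 1.11.5, leidenalg 0.10.2, scikit-learn 1.9.0). Promoters are RefSeq's on GRCm38.p6, matched by symbol. Overlapping genes were named from the same annotation.

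The members and lists were chosen with earlier results of these data known. Named in full are the 2 members with the lowest and the 1 with the highest ratio of each role. Of each other list the up to 3 lowest and the 1 highest at 5 CPM or more in a library are named, with Ccnb1, Ccna2, Plk1, Bub1b, Mad2l1, Prc1, Pttg1, Foxm1, Mybl2 and Cdkn1a. Shares of cells are given for Cdk1, Mki67, Top2a, Ccnb2, Cdc20 and Cenpf, and Psrc1 was added after its value was seen.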

Additional observations from a re-analysis of the deposited data

How the results depend on the processing

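No paired analysis was possible because each treatment has 1 library, and for the same reason no replicate could be left out. Of the 54 members, 39 were at least 1.5-fold lower, and 37 to 40 were lower with cells from 1000 or 3000 counts, with cells in the range of totals both libraries hold (13100 to 62534 counts), with 2 other scalings, with the mean over cells, with 10% free RNA subtracted, without the 5% of cells with the highest doublet score, and with a minimum of 1 or 100 counts. With equal cluster weights 5 members were lower and 2 higher and the median ratio was -0.24, with 16.8% of all genes lower and 8.72% higher. At 2-fold instead of 1.5-fold 10 were lower and 0 higher, with 6.73% and 3.34% of all genes. The equal-weight setting rests on clusters 1 and 2, which hold at least 30 cells of each library, and the cause of its difference was not tested. In it Kif22 (0.052), Ncapg (0.088) and Prc1 (0.071) had ratios above 0. Over the named genes and these settings, 671 of the gene ratios moved by less than the width allowed for counting error, 145 moved by more without a called value turning sign, and 3 reversed.

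The share of cells rich in mitosis transcripts was 8.08% with pyrvinium and 18.2% with DMSO at the 80th percentile of DMSO cells, and 1.52% and 4.49% at the 95th. At 5000 counts per cell the other set had 19.3 counts in rich pyrvinium cells and 18.5 in rich DMSO cells, a lower number because fewer counts were drawn. With the sets swapped the rich DMSO cells had 44.6 counts. The share stayed lower with pyrvinium in each of these settings, and also in cells of the shared range (4.01% and 9.44%) and without high doublet scores (3.63% and 9.16%).

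Depth limits what the rich cells can show: with 31 rich pyrvinium cells, a member with few counts has an interval over several fold. How many barcodes count as cells also turns on the limit, with 3051 pyrvinium and 4114 DMSO barcodes at 1000 counts or more.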

Other observations

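A few values lie outside the comparisons of the report. The genes whose counts ran most against the members from cell to cell in both libraries, chosen after their values were seen, were led by the stress-induced chromatin protein gene Nupr1 (r of -0.25 in pyrvinium cells and -0.32 in DMSO cells), Chd9 (-0.23 and -0.43) and the selenium carrier gene Selenop (-0.23 and -0.31). Nupr1 had 1309 CPM with pyrvinium and 806 CPM with DMSO, a log2 ratio of 0.70 (0.68 to 0.72), while Chd9 and Selenop were under 1.5-fold. Knl1, the kinetochore gene that was higher with pyrvinium, was counted in 10.7% of pyrvinium cells and 3.75% of DMSO cells at 9000 counts, and its r with the summed members was 0.04 and 0.07. Pttg1, the securin gene, was counted in 31.6% and 26.7% of cells, with an r of 0.06 and 0.11. By comparison Ccnb1, a cyclin gene, was counted in 13.6% and 24.7% of cells, with an r of 0.52 and 0.55, and Plk1 in 10.8% and 22.6%, with an r of 0.42 and 0.53.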
